A study of Mus musculus with 17 samples.

Results

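The MHC class II presentation genes examined in AB12 tumors were 10 of the 55450 genes of the count table: the chains of the classical molecules, H2-Aa, H2-Ab1 and H2-Eb1; the invariant chain, Cd74; the peptide editor, H2-DMa, H2-DMb1 and H2-DMb2; its inhibitor, H2-Oa and H2-Ob; and the transactivator, Ciita. They were taken by name, through their gene identifiers in Gencode vM21, and all 10 were found. The AB12 line stems from a mouse mesothelioma, and tumors grew in the peritoneum of 8-week-old female BALB/c mice after injection of AB12 cells, each library coming from a tumor of its own mouse. Untreated tumors were collected on d6 (n = 3, early-phase), d10 (n = 5, intermediate-phase) and d14 (n = 3, advanced-phase). Tumors of mice given 200 µg per injection of anti CTLA-4 (clone 9D9), an antibody that blocks an inhibitory receptor of T cells, were collected on d10 (n = 3) and d14 (n = 3). For the treated d14 tumors the study names injections on d6 and d10, whereas the injection days before the treated d10 tumors are not given in the sources used here. No isotype control antibody is named in the labels, so the comparison group is untreated mice. The tumors were whole tissue, in which AB12 cells, stroma and infiltrating leukocytes were sequenced together, so that fewer cells of a type and less RNA per cell cannot be told apart in any result given here.

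MHC class II molecules are pairs of an alpha and a beta chain that display peptides from engulfed proteins to CD4 T cells, and in mice they come as I-A and I-E. CD74, the invariant chain, holds newly made pairs and escorts them to endosomes, where cathepsins trim it to a fragment that still fills the peptide groove. H2-M, the mouse DM molecule, removes that fragment and lets better fitting peptides in, while H2-O, the DO molecule of B cells and some dendritic cells, restrains H2-M. CIITA switches the whole group on: it is always made in B cells and dendritic cells, IFN gamma induces it in macrophages and many other cells, and it binds DNA only through the proteins seated on the X and Y boxes of class II promoters. In tumors, macrophages and dendritic cells are the usual carriers of class II.

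The RefSeq promoters (GRCm38.p6, 250 bases before to 50 bases after a start) held entries for 7 of the 10 genes, which leaves out H2-Ab1, Cd74 and Ciita. Since X and Y boxes are where CIITA meets these genes, the stretch from 130 to 20 bases upstream is printed for 6 of them, on the strand of the gene, with letters of the X box (AGNAAC) and the Y box (ATTGG) in capitals where both stood at the spacing searched, and of the Y box alone otherwise:
H2-Oa, chr17:34092249-34092358, plus strand: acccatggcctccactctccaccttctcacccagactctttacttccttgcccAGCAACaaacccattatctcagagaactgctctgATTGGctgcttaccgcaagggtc
H2-DMb1, chr17:34153061-34153170, plus strand: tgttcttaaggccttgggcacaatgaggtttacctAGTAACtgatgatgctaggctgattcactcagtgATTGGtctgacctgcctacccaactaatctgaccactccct
H2-DMb2, chr17:34145119-34145228, plus strand: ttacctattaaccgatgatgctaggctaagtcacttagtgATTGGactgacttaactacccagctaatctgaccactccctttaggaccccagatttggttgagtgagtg
H2-Ob, chr17:34238775-34238884, plus strand: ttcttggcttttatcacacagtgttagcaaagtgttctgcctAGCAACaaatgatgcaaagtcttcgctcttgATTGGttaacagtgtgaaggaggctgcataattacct
H2-Eb1, chr17:34305737-34305846, plus strand: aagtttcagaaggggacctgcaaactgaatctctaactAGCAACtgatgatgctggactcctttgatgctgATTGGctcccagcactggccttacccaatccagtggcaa
H2-Aa, chr17:34287844-34287953, minus strand: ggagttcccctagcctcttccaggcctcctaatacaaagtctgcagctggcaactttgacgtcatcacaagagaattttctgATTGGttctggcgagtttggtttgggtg
An X box followed by a Y box, 28 to 38 bases from start to start, stood in the promoters of H2-Oa and H2-DMb1 (34 bases), H2-Eb1 (33 bases) and H2-Ob (31 bases). On either strand, the same pair stood in 0.575% of all 32851 RefSeq promoters. The Y box letters stood in 37.4% and the X box letters in 48.1% of them, again on either strand. H2-Aa and H2-DMb2 held the Y box letters without that X box spelling, and so did the second of the 2 H2-DMa entries, 198 bases upstream, with no match in the first. The matches named for the members are those on the strand of the gene, and no member entry held the pair on the opposite strand. The shares over all promoters count either strand and so are a wider measure. All matches describe letters of the C57BL/6J reference and not of the BALB/c genome, and no binding was measured.

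Of the 10 genes, 8 lie in the class II region of chromosome 17 (GRCm38), between 34092340, the start of H2-Oa, and 34316674, the end of H2-Eb1. Cd74 lies on chromosome 18 (60803848 to 60812652) and Ciita on chromosome 16 (10480059 to 10528418). Levels are given as CPM, in which counts are set to a common depth with TMM factors, and between genes only as FPKM, which is CPM per kilobase of merged exon. On the FPKM scale the median over all 17 libraries was 1790.0 for Cd74, 540 for H2-Eb1, 315 for H2-Ab1 and 226 for H2-Aa. The editor genes were lower, with median FPKM of 57.3 for H2-DMa, 44.9 for H2-DMb1 and 26.5 for H2-DMb2, and Ciita had 11.0 FPKM. The inhibitor genes were near the bottom of the range, with 2.03 FPKM for H2-Oa and 0.438 FPKM for H2-Ob, from 76 to 546 and from 82 to 665 counts per library. The order of the median FPKM was therefore invariant chain, classical chains, editor, transactivator, inhibitor. Reads of these BALB/c tumors were placed on a reference genome of another mouse strain. Whether reads were lost unequally between genes was not tested, so this order and ratios between genes hold for reads counted on that reference. Libraries held between 46371577 and 96759833 counts (median 72413343), of which the 10 genes took between 0.334% and 0.912%.

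The libraries fell into 3 sets by the count of a microRNA gene, Mir6236, a split chosen after values were seen. It had 3387 to 12332 counts in the d6 tumors and untreated d10 tumors 1 to 3, 141 to 1244 in untreated d10 tumors 4 and 5 and the treated d10 tumors, and 5 to 24 in all d14 tumors. The study used reads of 75 or 100 bases on different instruments, and which tumor had which is not given in the sources used here. Treated and untreated d14 tumors thus lay within the third set, d6 and untreated d10 tumors 1 to 3 within the first, and the comparison of d14 with d6 or d10 ran across sets, where set and day cannot be told apart. Because each group had tumors of separate mice, p-values measure the spread between mice together with that between libraries.

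**Figure D1:**
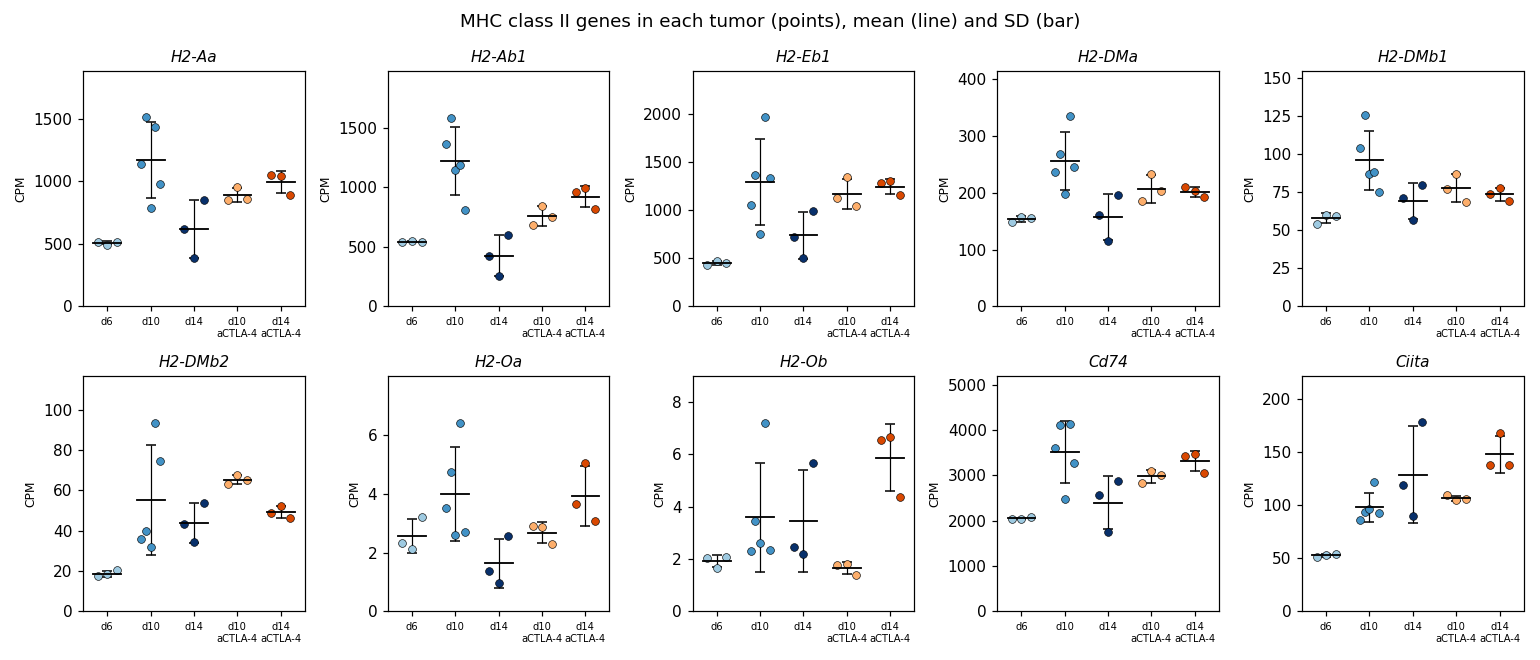
CPM of each of the 10 MHC class II genes (vertical axes, from 0) in every tumor (points) by group (horizontal axes; aCTLA-4: anti CTLA-4 treated), with the group mean (line) and SD (bar), n = 3 per group and 5 for untreated d10. H2-Aa lay between 494 and 516 CPM in the d6 tumors, and at or above 790.5 CPM in every untreated d10 tumor, while untreated d14 tumors spread from 390.2 to 848 CPM.

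At d10 against d6, 8 of the 10 class II genes passed the test upwards, all but H2-Oa (0.66 ± 0.32, edgeR adjusted p = 0.181) and H2-Ob (0.93 ± 0.39, adjusted p = 0.128). The median difference of the 10 was 0.92 on the log2 scale, against 0.03 over all 16866 genes tested. With calls made at an adjusted p below 0.05 and a change over 2-fold (edgeR's quasi-likelihood test), 4 of the 10 genes were called higher and none lower, where 4.79% of all tested genes were called higher and 2.66% lower. A further 4, namely H2-DMa, H2-DMb1, Cd74 and Ciita, passed the adjusted p within 2-fold, and 10.5% of all genes passed it upwards. The d10 and d6 tumors did not overlap for 9 of the 10, all but H2-Oa, against 14.1% of all genes upwards. In the comparison confined to the first library set, d10 tumors 1 to 3 against d6, the median was 0.86 and H2-Aa, H2-Ab1 and H2-Eb1 stayed called.

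At d14 against d10, 4 of the 10 genes passed the test downwards and 6 did not pass, with a median difference of -0.63 over the 10 on the log2 scale, against -0.04 over 17659 genes. H2-Ab1 and H2-Oa were called lower (edgeR), 2 of 10 against 3.45% of all genes, and none higher, against 3.78%. H2-Aa and H2-DMa also passed the adjusted p within 2-fold, 4 of 10 in all against 9.87%, and H2-Aa exceeded 2-fold without untreated d10 tumor 3 (-1.03) or without untreated d14 tumor 3 (-1.21). The groups did not overlap downwards for 3 genes, H2-Ab1, H2-DMa and H2-Oa, against 13.2% of all genes. Ciita was the only member with a positive estimate at d14 against d10 (0.39 ± 0.20 SE, adjusted p = 0.185, edgeR). Against d6, d14 tumors had H2-DMb2 and Ciita called higher and none lower, where 10.2% of 17172 genes were called higher and 8.81% lower, and the members' median was 0.29. With H2-Eb1 within 2-fold, 3 of 10 passed the adjusted p upwards against 25.5% of all genes, and 4 did not overlap upwards, H2-Eb1, H2-DMb2, H2-Ob and Ciita, against 29.5%, so that these shares were close to those of all genes. H2-Ob passed both thresholds there without untreated d14 tumor 1 (1.06, edgeR adjusted p = 0.0479) or 2 (1.11, adjusted p = 0.0221), and H2-Oa, downwards, without untreated d14 tumor 3 (-1.09, adjusted p = 0.0128).

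Between treated and untreated d14 tumors, 3 of the 10 genes passed the test, all upwards, with a median difference of 0.61 over the 10 on the log2 scale, against 0.00 over 18062 genes. H2-Ab1 and H2-Oa were called higher, 2 of 10 against 9.07% of all genes, and none lower, against 2.40% (edgeR). With H2-Eb1 within 2-fold, 3 of 10 passed the adjusted p upwards against 17.7%. No member was called without untreated d14 tumor 1 (median 0.58) or 2 (median 0.38), where 1121 of 18691 and 1045 of 18617 genes were called higher. None was called without treated d14 tumor 1 (median 0.60) or 2 (median 0.61), where 976 of 18533 and 1010 of 18610 genes were called higher. Without untreated d14 tumor 3, 5 members were called higher (median 0.86), as were 2214 of 18697 genes, so the calls over all genes moved too. Libraries of the treated and untreated d14 tumors did not overlap for 5 of 10 genes, H2-Aa, H2-Ab1, H2-Eb1, H2-Oa and Cd74, against 24.2% of all genes upwards. At d10 none of the 10 genes was called in either direction, where 3 of 17258 genes were called higher (0.0174%) and 0 lower, with 2329 genes at an unadjusted p below 0.05 (edgeR). The members' median at d10 was -0.31. For H2-Ob the treated d10 tumors did not overlap the untreated ones, downwards, 1 of 10 against 4.59% of all genes. The comparison at d10 takes untreated tumors from both the first and the second library set, and DESeq2 called 223 genes there, again none of the 10. Untreated d10 and d14 tumors serve in more than 1 of these comparisons, so a high or low untreated group moves each of them.

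**Figure D2:**
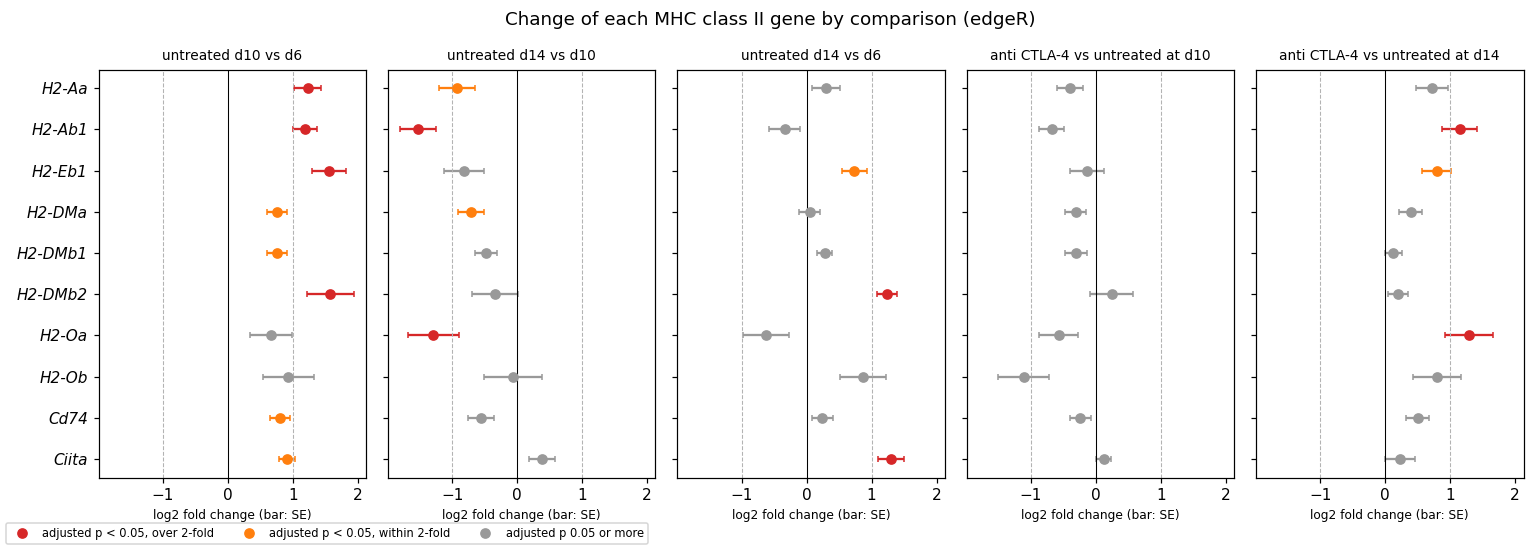
Log2 fold change (horizontal axis) of each class II gene (vertical axis) in 5 comparisons, with the SE as a bar and dashed lines at 2-fold. Red marks genes called by edgeR, orange an adjusted p below 0.05 within 2-fold. Red points stand to the right for H2-Aa, H2-Ab1, H2-Eb1 and H2-DMb2 at d10 against d6, to the left for H2-Ab1 and H2-Oa at d14 against d10, and to the right for those same genes in treated against untreated d14 tumors.

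H2-Ab1, the beta chain of I-A, was called in each of the 3 main comparisons, upwards, downwards and upwards. Its CPM was 542, 547 and 537 in the d6 tumors, 1364, 1581, 1143, 1183 and 809.6 in the untreated d10 tumors, and 420.5, 256 and 598 in the untreated d14 tumors. In treated tumors it was 679.8, 842 and 749 CPM at d10 and 955, 989 and 819 CPM at d14. Every untreated d10 tumor was above every d6 tumor and every untreated d14 tumor, and the 3 treated d14 tumors were above all untreated d14 tumors. The difference was 1.19 ± 0.19 (SE, log2) for d10 against d6 (edgeR, adjusted p = 0.00283), -1.52 ± 0.28 for d14 against d10 (adjusted p = 0.00932) and 1.15 ± 0.27 for treated against untreated d14 tumors (adjusted p = 0.0173). The call at d14 against d10 held with either part of the untreated d10 tumors, at -1.68 with tumors 1 to 3 and -1.25 with tumors 4 and 5. Both parts lie in other library sets than the d14 tumors, so neither separates day from set. The call for treatment rested on few tumors: it was lost without untreated d14 tumor 1 (adjusted p = 0.0625), tumor 2 (0.87 on the log2 scale), treated d14 tumor 1 (adjusted p = 0.0561) or treated d14 tumor 2 (adjusted p = 0.0563). At d10 treated tumors were lower by 0.68 ± 0.19 without passing (adjusted p = 0.245).

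H2-Aa, the alpha chain of the same I-A molecule, was called at d10 against d6 and had smaller differences after d10. It had 515, 494 and 516 CPM at d6, 1141, 1515.5, 791, 1435 and 977 CPM at d10, and 618, 390.2 and 848 CPM at d14. Treated tumors had 853, 959 and 859.5 CPM at d10, and 1053, 1044 and 895 CPM at d14. The d6 tumors lay within a narrow band below all d10 tumors, untreated d14 tumors spread across a wide range that overlapped d10, and treated d14 tumors were all above the untreated ones. H2-Aa was called at d10 against d6 (1.23 ± 0.20, edgeR adjusted p = 0.00344), and its difference between treated and untreated d14 tumors was 0.72 ± 0.25 with an adjusted p of 0.0565. Without untreated d14 tumor 3, the highest of its group, that difference was 1.04 and passed both thresholds.

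H2-Eb1, the beta chain of I-E, was called at d10 against d6 and was the only classical chain to pass the adjusted p at d14 against d6. Its CPM was 428, 466 and 447 at d6, 1049, 1366, 750.2, 1967 and 1333 at d10, and 725, 500.5 and 988 at d14. In treated tumors it was 1131, 1341 and 1042 CPM at d10, and 1287, 1300.0 and 1155 CPM at d14. All d10 and d14 tumors exceeded all d6 tumors, and treated d14 tumors exceeded untreated d14 tumors without overlap. The difference was 1.55 ± 0.26 for d10 against d6 (edgeR, adjusted p = 0.00409), 0.74 ± 0.20 for d14 against d6 (adjusted p = 0.0128) and 0.79 ± 0.22 for treatment at d14 (adjusted p = 0.0285), the last of which exceeded 2-fold without untreated d14 tumor 3 (1.08). At d14 against d10 it was -0.82 ± 0.31 (adjusted p = 0.0854), and with untreated d10 tumors 4 and 5 alone -1.18 (adjusted p = 0.0237). I-E has its alpha chain only in strains with an intact gene, which BALB/c mice carry and the C57BL/6J reference does not, and the annotation lists that locus as a pseudogene, H2-Ea-ps. Reads were counted there at 407 to 429 CPM at d6, 806 to 1417 CPM in untreated d10 tumors and 509 to 959.7 CPM in untreated d14 tumors, and edgeR called it higher at d10 against d6 (1.37 ± 0.18, adjusted p = 0.00115). H2-Eb2, a weakly transcribed neighbour of H2-Eb1, was called higher at both steps: its highest count in any d6 tumor was 12, and it had 0.635 to 2.21 CPM at d10 and 2.66 to 5.32 CPM at d14, with 2.69 ± 0.54 at d10 against d6 (adjusted p = 0.00854) and 1.75 ± 0.42 at d14 against d10 (adjusted p = 0.0217).

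The balance between the classical chains was not the same in every library. The log2 ratio of H2-Eb1 over H2-Ab1, on the FPKM scale, lay between -0.21 and 0.19 in the 6 libraries of the first set, between 0.88 and 1.14 in the 5 of the second and between 0.80 and 1.37 in the 6 of the third. Within untreated d10 it was 0.02, 0.19 and -0.21 in tumors 1 to 3, and 1.13 and 1.12 in tumors 4 and 5. The step of about 1 on the log2 scale thus separated tumors of the same group and followed the library set. The parts of that set and of the reference strain in this step were not tested. Any comparison of H2-Ab1 or H2-Eb1 across sets includes it: for d10 against d6, H2-Ab1 gave 1.35 with d10 tumors 1 to 3 and 0.89 with tumors 4 and 5, whereas H2-Eb1 gave 1.26 and 1.90. Within the third set the ratio was 1.19, 1.37 and 1.12 in untreated d14 tumors and 0.83, 0.80 and 0.90 in treated ones, with no overlap. This ratio was chosen after its values were seen and has no test.

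Cd74, the invariant chain, had the highest FPKM of the group. It had 2044, 2030.3 and 2073 CPM in the d6 tumors, 3596, 4107, 2485, 4138.5 and 3262 CPM in the untreated d10 tumors, and 2562, 1753 and 2879 CPM in the untreated d14 tumors. Treated tumors had 2831, 3104.5 and 3005.5 CPM at d10, and 3420.5, 3471 and 3062 CPM at d14. All d10 tumors were above all d6 tumors, d14 overlapped with d10, and treated d14 tumors did not overlap untreated ones. The difference was 0.80 ± 0.16 at d10 against d6 (edgeR, adjusted p = 0.00847), -0.56 ± 0.20 at d14 against d10 (adjusted p = 0.0790) and 0.50 ± 0.18 with treatment at d14 (adjusted p = 0.0610).

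The balance of Cd74 to the classical chains was compared within libraries. The log2 ratio of Cd74 over the summed FPKM of H2-Aa, H2-Ab1 and H2-Eb1 was 1.09 ± 0.03 (SD, n = 3) at d6, 0.54 ± 0.09 (n = 5) at d10 and 1.05 ± 0.19 (n = 3) at d14. The d10 tumors were below all d6 and all d14 tumors. An exact two-sided permutation test gave p = 0.0179 for d10 against d6 and for d14 against d10, the smallest p that 5 against 3 libraries allow, and adjusted over 18 ratio tests both became 0.161. Treated d14 tumors had 0.65 ± 0.02 against 1.05 in untreated ones, without overlap, with an exact permutation p of 0.1, the smallest that 3 against 3 allow, adjusted 0.241. A ratio within a library does not depend on scaling between libraries. This one was 0.64, 0.51 and 0.51 in untreated d10 tumors 1 to 3, and 0.41 and 0.63 in tumors 4 and 5, without a step. Its denominator sums H2-Ab1 and H2-Eb1, whose balance did step between these parts, and d14 against d10 runs across library sets. The parts of the library set and of the reference strain in this ratio were not tested.

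**Figure D3:**
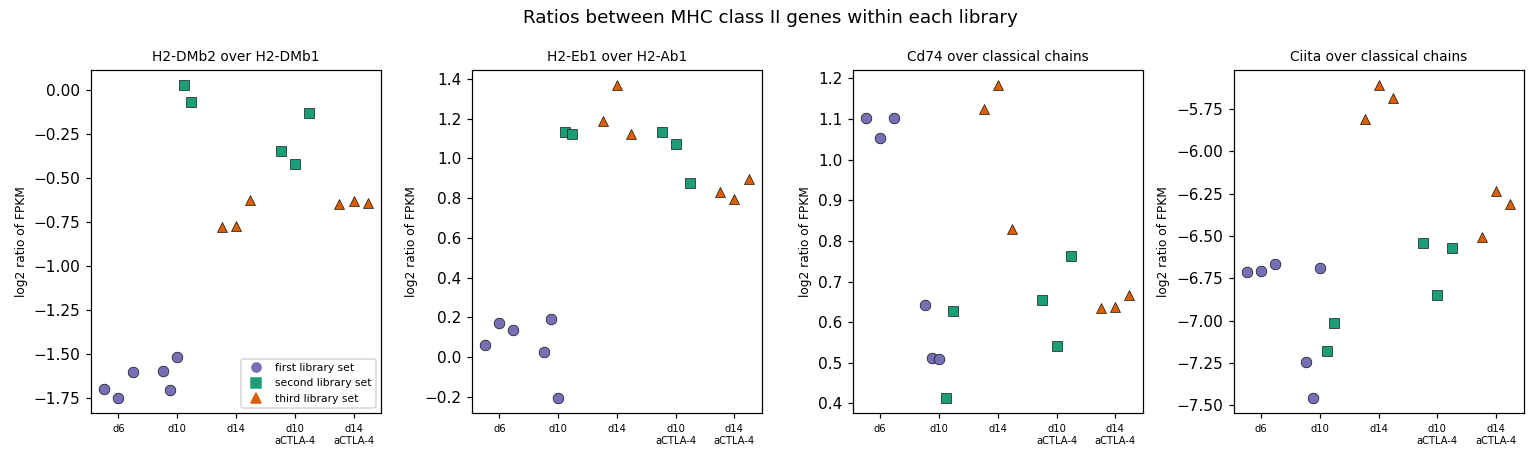
Log2 ratios of FPKM (vertical axes) within each library by group (horizontal axes; aCTLA-4: anti CTLA-4 treated), for H2-DMb2 over H2-DMb1, H2-Eb1 over H2-Ab1, Cd74 over the classical chains and Ciita over the classical chains, with the library set as shape and color. In the first and second panels untreated d10 tumors of the first set sit with the d6 tumors and the other untreated d10 tumors sit with the treated d10 tumors, whereas in the third panel all untreated d10 tumors lie below the d6 tumors.

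The peptide editor H2-M pairs an alpha chain from H2-DMa with a beta chain from either H2-DMb1 or H2-DMb2. H2-DMa had 148 to 158 CPM at d6, 198 to 335 CPM in untreated d10 tumors and 115 to 195 CPM in untreated d14 tumors, with treated tumors at 185 to 233 CPM on d10 and 193 to 211 CPM on d14. It was higher at d10 than at d6 (0.76 ± 0.15, edgeR adjusted p = 0.00894) and lower at d14 than at d10 (-0.71 ± 0.20, adjusted p = 0.0349), both within 2-fold. Some of its exon sequence, 360 bases, lies under Brd2 on the opposite strand, and whether counting used strand is not stated. The same limit holds for Ciita, with 329 exon bases under Dexi, a gene with at most 1633 counts in a library. H2-DMb1 had 54.3 to 59.8 CPM at d6, 75.5 to 126 CPM at d10 and 56.6 to 79.9 CPM at d14, and its difference was 0.75 ± 0.16 at d10 against d6 (adjusted p = 0.00988).

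H2-DMb2 differed between the library sets within the untreated d10 group. It had 17.4, 18.5 and 20.4 CPM at d6, and 35.8, 40.1, 31.7, 93.5 and 74.8 CPM in the untreated d10 tumors. At d14 it had 43.3, 34.5 and 53.9 CPM untreated and 49.0, 52.5 and 46.3 CPM treated, and at d10 63.2, 67.6 and 65.3 CPM treated. Untreated d10 tumors 4 and 5, in the same library set as the treated d10 tumors, lay above all treated d10 tumors and all other libraries, while untreated d10 tumors 1 to 3 lay below every treated d10 tumor. The log2 ratio of H2-DMb2 over H2-DMb1, on the FPKM scale, was -1.75 to -1.51 in the first set, -0.42 to 0.03 in the second and -0.78 to -0.63 in the third, so that the 3 sets did not overlap although each held more than 1 group. The transcripts of this pair are 94.6% identical over 1219 aligned bases (Gencode vM21, longest coding transcript of each), and 18.0% of all windows of 75 bases in H2-DMb2 occur unchanged in H2-DMb1, where a read has no single place to map, so that the values of both are uncertain. The part of the library set in these values was not tested.

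The calls for H2-DMb2, 1.58 ± 0.36 at d10 against d6 (edgeR, adjusted p = 0.0158) and 1.24 ± 0.15 at d14 against d6 (adjusted p = 0.000266), therefore ran partly or wholly across library sets. Within the first set d10 exceeded d6 by 0.96 (adjusted p = 0.000451), just inside 2-fold, and H2-DMb1 by 0.89 in the same tumors. The call at d10 was also lost without d6 tumor 1 (adjusted p = 0.0775), 2 (adjusted p = 0.0645) or 3 (adjusted p = 0.0620). Added together, which does not restore reads without a single place, H2-DMb1 and H2-DMb2 had 71.7 to 80.1 CPM at d6, 119 to 182 CPM in untreated d10 tumors, 91.1 to 134 CPM in untreated d14 tumors and 116 to 130.4 CPM in treated d14 tumors. The d10 mean of the sum was 1.97 times the d6 mean, 1.84 times with d10 tumors 1 to 3 and 2.16 times with tumors 4 and 5.

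The inhibitor H2-O has its alpha chain from H2-Oa and its beta chain from H2-Ob, and both were low. H2-Oa had 2.31, 2.14 and 3.22 CPM at d6, 3.51, 4.74, 2.61, 6.38 and 2.70 CPM in untreated d10 tumors, and 1.36, 0.980 and 2.56 CPM in untreated d14 tumors. Treated tumors had 2.89, 2.86 and 2.27 CPM at d10, and 3.63, 5.05 and 3.07 CPM at d14. Untreated d14 tumors were all below the untreated d10 tumors and all below the treated d14 tumors. The difference was -1.29 ± 0.39 for d14 against d10 (edgeR, adjusted p = 0.0459) and 1.29 ± 0.36 for treatment at d14 (adjusted p = 0.0310), near the threshold both times. The call at d14 against d10 was lost without untreated d10 tumor 1 (adjusted p = 0.0734), 2 (adjusted p = 0.0952) or 4 (adjusted p = 0.0620), and without untreated d14 tumor 1 (adjusted p = 0.142) or 2 (adjusted p = 0.176). That for treatment was lost without untreated d14 tumor 1 (adjusted p = 0.105) or 2 (adjusted p = 0.0623), or treated d14 tumor 1 (adjusted p = 0.0739) or 2 (adjusted p = 0.104).

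H2-Ob, the partner of H2-Oa, was the lowest member per kilobase. Its CPM was 2.02, 1.65 and 2.06 at d6, 2.32, 3.45, 2.63, 7.20 and 2.35 in untreated d10 tumors, and 2.46, 2.20 and 5.68 in untreated d14 tumors. In treated tumors it was 1.79, 1.80 and 1.39 CPM at d10, and 6.55, 6.67 and 4.38 CPM at d14. Untreated d10 tumor 4 and untreated d14 tumor 3 stood above the rest of their groups, and the treated d10 tumors were below all untreated d10 tumors. No pairwise comparison of H2-Ob passed the adjusted p in edgeR, with -1.11 ± 0.39 for treatment at d10 (adjusted p = 0.304) and 0.80 ± 0.37 at d14 (adjusted p = 0.131). Without untreated d14 tumor 3 the difference with treatment at d14 was 1.39 (adjusted p = 0.00543). H2-Oa was also highest in untreated d10 tumor 4 and untreated d14 tumor 3 within their groups. The log2 ratio of H2-Oa over H2-Ob (FPKM) was 1.92 to 2.58 in the first library set, 1.76 to 2.64 in the second and 0.77 to 1.53 in the third, a ratio chosen after its values were seen and without a test. The summed CPM of 8 B cell genes was also highest in these tumors of both groups, with 217 in untreated d10 tumor 4 against 59.9 to 79.7 in the other untreated d10 tumors, 104 in untreated d14 tumor 3 against 55.9 and 64.8 in its group, 46.1 to 55.0 in treated d10 tumors and 86.2 to 92.9 in treated d14 tumors. At d6, where H2-Ob was lower than in treated d14 tumors, the sum was 78.5 to 99.5 CPM. Pax5, a B cell transcription factor, made up much of the sum at d6, with a mean of 46.4 of 87.8 CPM. Its mean was 27.6 CPM at untreated d10, 46.7 CPM at untreated d14 and 33.0 of 90.6 CPM at treated d14. Over the 8 B cell genes the median difference with treatment was -3.06 at d10 and 0.92 at d14, with none called. The treatment effect at d14 exceeded that at d10 for 7 of the 8 (called, median 4.02), where 9.67% of all genes were called higher. Pax5 was picked with its values known. The part of B cells in the H2-Ob values was not tested. The log2 ratio of H2-O over H2-M genes (FPKM) was -6.06 ± 0.44 in untreated and -5.10 ± 0.28 in treated d14 tumors (SD, n = 3 each), with no overlap and an exact permutation p of 0.1, adjusted 0.241.

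Ciita, which switches the group on, was higher at d10 than at d6. At d14 against d10 its estimate was positive and did not pass (0.39 ± 0.20, edgeR adjusted p = 0.185). It had 51.6, 53.2 and 54.0 CPM at d6, 86.3, 93.3, 96.2, 122 and 92.8 CPM in untreated d10 tumors, and 119, 89.7 and 178 CPM in untreated d14 tumors. Treated tumors had 109, 105 and 106 CPM at d10, and 138, 168 and 138 CPM at d14. All d10 and d14 tumors were above all d6 tumors, and d10 and d14 overlapped without treatment. The difference was 0.91 ± 0.12 for d10 against d6 (edgeR, adjusted p = 0.00124), 1.30 ± 0.20 for d14 against d6 (adjusted p = 0.000921) and 0.23 ± 0.23 for treatment at d14 (adjusted p = 0.465). Treated d14 tumors exceeded untreated d10 tumors without overlap (0.55 ± 0.13, adjusted p = 0.0133), the only member to pass in that comparison, against 12.4% of 18057 genes upwards. The same comparison had none of the 10 called, where 5.34% of genes were called higher and 2.49% lower, 1 of 10 without overlap upwards against 17.6%, though H2-Ob was called in the comparison with d10 tumors 1 to 3 alone (1.04, adjusted p = 0.00448) and without d10 tumor 4 (1.09, adjusted p = 0.00637). Of all calls there 68.2% were upwards, and 82.2% with library sizes in place of TMM, which moved the median of all genes from -0.03 to 0.11.

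The balance of Ciita to the classical chains differed most at d14. The log2 ratio of Ciita over the classical chains, on the FPKM scale, was -6.71, -6.71 and -6.67 at d6, -7.24, -7.46, -6.69, -7.18 and -7.01 in untreated d10 tumors, and -5.81, -5.61 and -5.69 in untreated d14 tumors. It was -6.54, -6.85 and -6.57 in treated d10 tumors and -6.50, -6.24 and -6.31 in treated d14 tumors. Untreated d14 tumors had the highest ratio of all 17 libraries, and treated d14 tumors, in the same library set, lay below them without overlap. The part of the reference strain in this ratio was not tested. This ratio was chosen after its values were seen and has no test.

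Whether treatment acted differently on the 2 days was tested as an interaction in the 4 d10 and d14 groups. The treatment effect at d14 exceeded that at d10 for H2-Ab1 (1.82 ± 0.35, edgeR adjusted p = 0.00532), H2-Oa (1.85 ± 0.50, adjusted p = 0.0223), H2-Aa (1.10 ± 0.34, adjusted p = 0.0380) and H2-Ob (1.90 ± 0.59, adjusted p = 0.0389), 4 of 10 called higher against 9.67% of 18574 genes, and none lower against 2.15%. The members' median was 0.82. H2-Ab1 stayed called with each tumor left out in turn, and H2-Eb1 was called without untreated d10 tumor 3 (1.06, adjusted p = 0.0346). H2-Oa lost its call without untreated d14 tumor 1 (adjusted p = 0.0581) or 2 (adjusted p = 0.0653), treated d10 tumor 3 (adjusted p = 0.0618) or treated d14 tumor 2 (adjusted p = 0.0715). H2-Aa lost it without any of untreated d10 tumors 1 and 2, untreated d14 tumors 1 and 2 and all 6 treated tumors, with adjusted p from 0.0522 to 0.0960, and H2-Ob without untreated d10 tumor 2, untreated d14 tumors 1 and 2, any treated d10 tumor or treated d14 tumors 1 and 2, with adjusted p from 0.0553 to 0.107. The interaction sets d14 tumors of the third library set beside d10 tumors of the other sets, and it rests on the same untreated groups as the comparisons by day.

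Genes that act with the class II molecules were followed as lists. The enhanceosome list holds the RFX, CREB and NF-Y subunits that hold CIITA at class II promoters: 6 of its 7 genes were tested and none was called in any comparison, with Rfxap, an RFX subunit, passing at d14 against d10 within 2-fold (-0.61, edgeR adjusted p = 0.0143), and Nfya had no count in any library. Of 9 genes for lysosomal processing, 4 were called lower at d14 against d10 and 8 passed the adjusted p downwards, where 3.45% and 9.87% of all genes did. Among them were Ctss, the cathepsin that trims the invariant chain (-1.50 ± 0.34, adjusted p = 0.0173), Ifi30, a thiol reductase that unfolds antigens (-1.46 ± 0.42, adjusted p = 0.0372), and Ctsz, a carboxypeptidase (-1.19 ± 0.19, adjusted p = 0.00663). In treated against untreated d14 tumors 4 of these 9 were called higher and 8 passed upwards, where 9.07% and 17.7% of all genes did, with Ctsh at 1.46 ± 0.20, Ctss at 1.40 ± 0.28 and Ctsz at 1.01 ± 0.16. Ctss (1.40 ± 0.27) and Ctsd, an aspartic protease (1.27 ± 0.21), were called higher at d10 against d6, with 6 of 9 passing upwards, where 4.79% of all genes were called higher and 10.5% passed. Over the same comparisons the list's median was 0.67, -0.90 and 0.96, for d10 against d6, d14 against d10 and treatment at d14. Ifi30 spread from 22.6 to 76.9 CPM within untreated d10 and from 25.0 to 31.9 CPM in treated d10 tumors. At d14 it had 16.0 to 22.3 CPM untreated and 18.0 to 22.3 CPM treated. Calls of list genes are given for the main fit only, not with tumors left out.

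Of the 8 genes of the IFN gamma axis, which induces Ciita, none passed the adjusted p in edgeR at d10 against d6, and Ifng itself had -0.76 there (adjusted p = 0.113). Ifng (-1.39 ± 0.35, adjusted p = 0.0242) and the feedback inhibitor Socs1 (-1.16 ± 0.24, adjusted p = 0.0136) were called lower at d14 against d10, and Ifng was called higher with treatment at d14 (1.06 ± 0.25, adjusted p = 0.0167). A list of 6 genes held costimulatory genes together with ligands of PD-1. Of these, Cd40, the receptor by which helper T cells stimulate antigen presenting cells, and Pdcd1lg2, the PD-1 ligand PD-L2, were called lower at d14 against d10 (-1.09 ± 0.28 and -1.74 ± 0.30). Both were called higher with treatment at d14 (1.09 ± 0.25 and 1.62 ± 0.29). Over all genes 3.45% were called lower at d14 against d10 and 9.07% higher with treatment at d14. Of 4 genes for class II turnover, March1, a ubiquitin ligase that removes class II from the surface, was called higher with treatment at d14 (1.34 ± 0.21, adjusted p = 0.00656). Cd4 and Lag3, surface proteins of T cells that bind class II itself, were both called lower at d14 against d10 (-1.20 ± 0.28 and -1.07 ± 0.33). Lag3 was called higher at d10 against d6 (1.21 ± 0.24), and Cd4 higher with treatment at d14 (1.505 ± 0.272). At d10 no gene of these lists was called between treated and untreated tumors.

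Markers of other cells are given beside the class II genes. All 9 macrophage markers were detected in every library, and their summed CPM was 1664 to 1798 at d6, 1705 to 2755 in untreated d10 tumors, 783 to 1146 in untreated d14 tumors and 1791 to 2223 in treated d14 tumors. With treatment at d14 7 of the 9 were called higher (9.07% of all genes), at d14 against d10 4 were called lower (3.45%), and at d10 against d6 none was called and 2 passed the adjusted p. For 9 conventional dendritic cell markers, all detected, the sums were 106 to 121 CPM at d6, 95.9 to 169 CPM in untreated d10, 52.2 to 80.0 CPM in untreated d14 and 84.6 to 111 CPM in treated d14 tumors. Itgax, which macrophages also express, took a large share of that sum, with a mean of 91.2 CPM at untreated d10 and 30.1 CPM at untreated d14 (edgeR, -1.602 ± 0.274, adjusted p = 0.00790). Flt3, the first gene of this list, had a mean of 3.52 CPM at untreated d10 and 4.57 CPM at untreated d14 (0.37 ± 0.26, adjusted p = 0.327). Xcr1, a chemokine receptor of cross-presenting dendritic cells, had 6.99 and 8.65 CPM (0.30 ± 0.20, adjusted p = 0.297). Flt3 and Xcr1 were the only markers of this list with a higher mean at untreated d14 than at untreated d10. The list's median difference at d14 against d10 was -0.63 on the log2 scale. Of the 9 markers 2 passed the adjusted p downwards there, where 9.87% of all genes did. Among the 9, 1 was called lower at d14 against d10 (3.45% of all genes) and 2 higher with treatment at d14 (9.07%). Itgax, Flt3 and Xcr1 were picked with their values known. The 4 pan-leukocyte markers had 642 to 703 CPM at d6, 745 to 1180 CPM in untreated d10, 354 to 632 CPM in untreated d14 and 912 to 1054 CPM in treated d14 tumors. The 8 T cell markers had 63.4 to 70.7 CPM at d6 and 259 to 343 CPM in untreated d10 tumors, with 7 called higher (4.79% of all genes). In untreated d14 tumors they had 105 to 194 CPM, with 4 called lower against d10 (3.45%). Treated d14 tumors had 279 to 317 CPM, with 3 called higher than in untreated d14 tumors (9.07%). Lists of large peritoneal macrophages, monocytes, plasmacytoid dendritic cells, NK cells, neutrophils, fibroblasts, endothelial and mesothelial cells were detected as well, with 1 gene, Klra9, at 0 in some library. Of the 6 fibroblast markers 5 were called higher with treatment at d14 (9.07% of all genes), at sums of 3702 to 5651 CPM against 1635 to 2943 CPM. The part of any of these populations in the class II values was not tested.

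**Figure D4:**
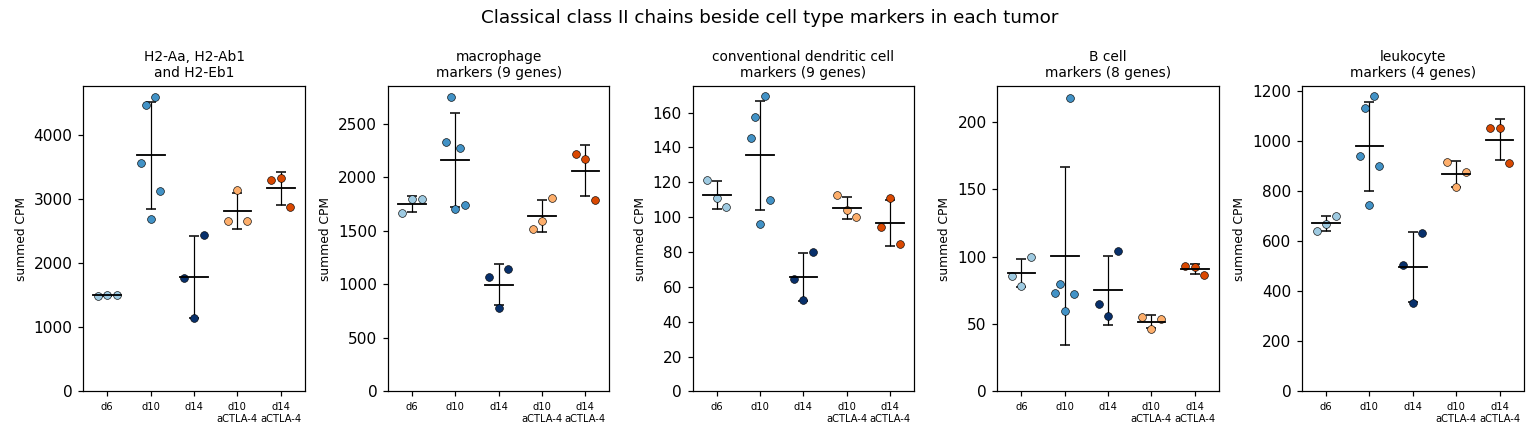
Summed CPM (vertical axes, from 0) of the classical class II chains and of marker genes of macrophages, conventional dendritic cells, B cells and leukocytes in every tumor (points) by group (horizontal axes; aCTLA-4: anti CTLA-4 treated), with the mean (line) and SD (bar). The classical chains had 1485 to 1508 CPM at d6 and 2684 to 4586 CPM in untreated d10 tumors, and the untreated d14 tumors had the lowest sums of macrophage, dendritic cell and leukocyte markers, the dendritic cell sum including Itgax.

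Among themselves the members were not equally close. Pearson's r between the log2 CPM of a member and the mean of the other 9, over the 17 libraries, was 0.96 for Cd74, 0.959 for H2-Aa and 0.941 for H2-Eb1, and lowest for H2-Ob (0.569), Ciita (0.625) and H2-DMb2 (0.669). Of 9541 other protein coding genes with a mean of at least 10 CPM, Ldb1 (r = 0.960), Hvcn1 (0.960), Mxd4 (0.952), Cd22 (0.950) and Rcbtb2 (0.942) followed the mean of the members most closely. Hvcn1, a proton channel of leukocytes, had 10.2 ± 0.5 CPM at d6 (SD, n = 3), 39.8 ± 16.5 at d10 (n = 5), 14.9 ± 8.6 at d14 (n = 3) and 47.1 ± 9.9 in treated d14 tumors (n = 3). Cd22, a surface protein of B cells, had 7.71 ± 0.60, 21.6 ± 8.8, 9.62 ± 7.04 and 24.2 ± 4.0 CPM in the same groups. These correlations describe 17 libraries that share groups and library sets, and carry no test.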

How the data were processed

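RNA-Seq of 17 AB12 tumors was analysed from the table of counts the authors deposited, whole numbers per gene without normalization. Per the labels and methods, libraries came from the KAPA RNA HyperPrep kit and were sequenced as paired-end reads of 75 or 100 bases. TopHat2 (v2.0.14) placed reads on GRCm38/mm10 (C57BL/6J), those mapping to a single place were kept, and HTSeq made the counts with Gencode vM21. The strand setting is not given in the sources used here. Total counts ranged from 46371577 to 96759833 per library. All 55450 gene identifiers matched Gencode vM21.

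Genes were tested with edgeR 4.0.16 (R 4.3.3): filterByExpr, TMM, quasi-likelihood test, only the groups compared in the fit, Benjamini-Hochberg over all tested genes. Called means an adjusted p below 0.05 together with a change over 2-fold. Standard errors are the log2 fold change over the square root of F. All 10 members passed the filter in every comparison. CPM used TMM factors over all 17 libraries, and FPKM is CPM per kilobase of merged exon. For ratios within libraries, two-sided exact permutation tests were used. The tests were tried on simulated counts with known changes. Groups and replicate numbers come from the titles, 1 tumor per mouse. Among 30 same-numbered pairs of tumors the correlation of deviations from the group means was -0.254 to 0.138, over 0.1 in 2, so the numbers were not used as pairs. Between 22 pairs of replicates chi-square per gene was 20.3 to 295, above sampling noise.

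The members, the gene lists and the tests were chosen with earlier results of these data known. Named genes are all members, of each pathway list up to 3 genes called per comparison, and the 5 genes most correlated with the members' mean. H2-Ea-ps and H2-Eb2 formed a list of their own. Genes named that did not pass, Nfya and Klra9, the library sets, and the ratios of H2-Eb1 over H2-Ab1 and of Ciita over the classical chains were chosen after values were seen. Alternatives were DESeq2 1.42.0, library size without TMM, other filters on low counts (at least 1 count, or 10 in every library), protein coding genes only, all 5 groups in one fit, the replicate number as a block, parts of the untreated d10 tumors, and each tumor left out in turn. Transcripts were aligned with Biopython 1.88, and figures drawn with matplotlib 3.10.9.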

Additional observations from a re-analysis of the deposited data

Results flagged for a closer look

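In the untreated d10 group, the only group with more than 3 tumors, the gap between the highest tumor and the next, divided by the range, exceeded Dixon's critical value of 0.71 for 2 of 13 values. For H2-Ob, the beta chain of the DM inhibitor, tumor 4 had 7.20 CPM. For Ciita the same tumor 4 had 122 CPM. Chance alone would flag about 1 in 20 values. Both flags fell on the same tumor in members whose levels went together (Pearson's r = 0.677), so they were not independent. This tumor also had the highest sum of B cell markers of all 17 libraries, 217 CPM. The part of B cells in these values was not tested.

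The treatment effect differed between d14 and d10 for 4 members by the interaction in edgeR, on the log2 scale by 1.10 for H2-Aa, 1.82 for H2-Ab1, 1.85 for H2-Oa and 1.90 for H2-Ob. For H2-Ab1 the effect was 1.15 at d14 (edgeR, adjusted p = 0.0173) and -0.68 at d10, where it did not pass (adjusted p = 0.245). For H2-Ob it was 0.80 and -1.11, and neither passed (adjusted p = 0.131 and 0.304). Against untreated d10 tumors 1 to 3, of another library set, the d10 effects were -0.84 and -0.75 (adjusted p = 0.00205 and 0.0254). Against tumors 4 and 5, of the same set, they were -0.40 and -1.54 (adjusted p = 0.257 and 0.135).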

How the results depend on the processing

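At d10 against d6, H2-Aa, H2-Ab1 and H2-Eb1 stayed called under DESeq2, library sizes without TMM, other filters, protein coding genes only, all 5 groups in one fit, the replicate block and each tumor left out, and H2-Ab1 alone lost its call with d10 tumors 4 and 5 only. Where a value below changed, the cause was not tested. With the replicate number as a block, which the pairing check did not back, 1 member was called at d14 against d10, 1 for treatment at d14 and 1 for treated d14 against untreated d10 (2361 genes in all, members' median 0.029, H2-Eb1 0.25, H2-DMb2 0.43, H2-Oa 0.094); treatment at d10 had 1210 genes called and H2-Eb1 at 0.18, and d14 against d10 had H2-DMb2 at 0.28 and H2-Ob at 0.19. With library sizes, 1 member was called at d14 against d10 (H2-Ob 0.0069) and 0 genes for treatment at d10, and treated d14 against untreated d10 gave H2-Eb1 0.060, H2-Oa 0.085 and Cd74 0.024. Treatment at d10, with 3 genes called, had 223 with DESeq2, 40 with genes of at least 1 count, 7 with 10 counts in every library, 0 with protein coding genes and 77 with all groups in one fit. Genes with 10 counts in every library gave 821 calls at d14 against d10, 2151 at d14 against d6 and 807 at treated d14 against untreated d10, and protein coding genes 707, 1995 and 778 (H2-Oa 0.0082 in the last). All groups in one fit gave 2001 calls at d14 against d10. Over all genes, the replicate block gave 1589 calls at d14 against d10 and 1702 for treatment at d14. Library sizes gave 1269 calls at d14 against d10. With untreated d10 tumors 1 to 3 only, d14 against d10 had 1969 calls, H2-DMb2 at 0.295 and H2-Ob at 0.30, treatment at d10 had 1152 calls and H2-Eb1 at 0.16, and treated d14 against untreated d10 had 2271 calls, 1 member called, a members' median of 0.011, H2-Eb1 at 0.21, H2-DMb2 at 0.43 and H2-Oa at 0.083. With tumors 4 and 5 only, d10 against d6 had 2794 calls, treatment at d10 had 96 calls, H2-DMb2 at -0.37 and Ciita at -0.015, treated d14 against untreated d10 had 2202 calls, and the interaction had H2-DMb2 at 0.56. Ratios of summed counts, not per kilobase, gave 0.0017 for DO over DM at d14 against d10 and -0.14 at d14 against d6, and 0.012 for Cd74 over the classical chains at d14 against d6.

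With each tumor left out in turn, calls over all genes ranged from 810 to 1377 for d10 against d6, 281 to 1528 for d14 against d10, 0 to 115 for treatment at d10, 1172 to 2851 for treatment at d14, 588 to 1790.0 for treated d14 against untreated d10 and 1315 to 2598 for the interaction. Members called ranged from 1 to 3 for d14 against d10, 0 to 5 for treatment at d14, 0 to 1 for treated d14 against untreated d10 (median -0.28 to 0.0016) and 1 to 5 for the interaction. Small differences changed sign: H2-Ob (-0.62 to 0.35) at d14 against d10, H2-DMa (-0.11 to 0.23) at d14 against d6, H2-Eb1 (-0.29 to 0.055) for treatment at d10, H2-DMb1 (-0.020 to 0.26) for treatment at d14, H2-Eb1 (-0.22 to 0.11), H2-DMb2 (-0.34 to 0.062) and H2-Oa (-0.29 to 0.17) at treated d14 against untreated d10, H2-DMb2 (-0.32 to 0.10) and Ciita (-0.13 to 0.38) in the interaction, and Cd74 over the classical chains (-0.11 to 0.068) at d14 against d6. With 3 tumors in most groups, no ratio could pass after adjustment where 3 stood against 3.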
